A study of Arabidopsis thaliana with 2 samples.

Results

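Of 48 homeodomain-leucine zipper (HD-ZIP) genes listed for Arabidopsis thaliana, 6 were in the deposited table of 733 stem genes. The table lists genes lower in *cep1* and holds 2.51% of the 27444 protein-coding genes annotated in TAIR10.1 (690 genes), whether or not a gene was expressed in stems, and the 2 shares were not tested against each other. The 5 described here were taken by gene name: *ATHB-12*, *ATHB-7* and *ATHB-54* of class I, *ATHB-9* of class III and *HDG5* of class IV. The other one, *GL2* of class IV, had 20 reads in the *cep1* mutant, against 485 in the wild type (WT), and is not followed further. No class II gene was in the table, and the remaining HD-ZIP genes were not analysed here.

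HD-ZIP proteins are transcription factors found in plants only. A homeodomain binds the DNA, and the leucine zipper next to it lets a pair of proteins bind together. Their 4 classes have different roles. Class I genes such as *ATHB-7* and *ATHB-12* are induced by abscisic acid (ABA) and water deficit, class III genes such as *ATHB-9* (*PHAVOLUTA*, *PHV*) pattern the adaxial side of organs, meristems and vascular bundles and are silenced by the microRNAs miR165 and miR166, and class IV genes act mainly in the epidermis.

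The data are 2 RNA-seq libraries from mature main stems, 1 of the *cep1* mutant and 1 of the WT, without replicates. The *cep1* plants carried a T-DNA insertion in the third exon of *CEP1*, which encodes a papain-like cysteine protease, in the Columbia-0 background, and the WT was Columbia-0. Both were grown at 20 °C with 16 h of light by the sample labels, which place both stems at 25 d after flowering. The study's methods give a higher growth temperature, and no treatment of the plants is described there. The study took the stems for RNA at a late developmental stage, which by its account *cep1* plants reached at a later age than the WT. On plant age, the labels and the study are not reconciled here. Either age or developmental stage may thus differ between the libraries, and neither can be told apart from genotype. One mutant line was sequenced, and the labels do not say how many plants a library held.

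The totals behind the FPKM values (fragments scaled to the gene length and the library total) were 22077141 reads for *cep1* and 20962056 for the WT. *CEP1* itself had 15 reads in *cep1*, against 1269 in the WT library. The table lists only genes that the authors marked as lower in *cep1*, so that 100% of its genes have a log2 ratio of *cep1* to WT of -1 or below, and the direction of the HD-ZIP genes is not a finding. With 1 library per genotype no test between the genotypes was possible, and each 95% interval given here covers counting error only. In whole stems, fewer cells that express a gene and less RNA per cell cannot be told apart. Of 15 seed markers, 14 were in the table, with 139 reads in *cep1*, against 91325 in the WT library in sum. In *cep1*, 12 of the 14 had no read, the remaining reads being 137 of *OLEO4* (listed as *OL2*) and 2 of *TIP3-1*. Of 9 morning-phased clock genes 5 were in the table, with 5182 reads in *cep1*, against 40321 in the WT library. None of the 12 xylem markers was in the table, which holds only genes lower in *cep1*, so the stem identity of the libraries could not be checked from it. The study reports several of these markers, including *CESA4*, *IRX9*, *LAC17* and *MYB46*, as higher in *cep1*. The part of seed tissue or of the time of day in the HD-ZIP values was not tested.

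*ATHB-12* (AT3G61890) encodes a class I protein that restrains growth and modulates ABA signalling. The table places it at chr3:22914154-22915325 on the reverse strand, and the TAIR10.1 annotation gives it 2 exons, a coding sequence of 708 bases and no overlapping gene. It had 1177 reads and an FPKM of 54.1 in *cep1*, against 6933 reads and an FPKM of 335 in the WT. It thus had the highest level of the 5 genes in the WT library, where 48 of the 733 genes of the table had a higher FPKM, but not in the *cep1* library. Its log2 ratio, on the authors' normalized counts, was -2.39 with an interval from -2.48 to -2.31, and its level in *cep1* was 19.0% of that in the WT.

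*ATHB-7* (AT2G46680) is the closest relative of *ATHB-12* among the 5 genes and is likewise an ABA-responsive regulator of growth under water deficit. The table places it at chr2:19165403-19166949 on the reverse strand, with 2 exons and a coding sequence of 777 bases in TAIR10.1, where AT2G46670 lies 40 bases away on the same strand. It had 2176 reads and an FPKM of 74.8 in *cep1*, against 5303 reads and an FPKM of 192 in the WT. The log2 ratio was -1.12 (interval -1.19 to -1.05), close to the threshold of -1 by which the table was made, and 90.3% of its genes had a lower ratio. The translated coding sequences of *ATHB-12* and *ATHB-7* were identical at 159 of 230 aligned residues (69.1%), whereas the other 9 pairs of the 5 proteins were identical at 26.6 to 36.9% of aligned residues. The alignments ran over whole proteins, some of very unequal length, so these low values do not rank relatedness. *ATHB-12*, for example, had 36.9% with *HDG5* and 35.4% with *ATHB-54* of its own class.

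*ATHB-54* (AT1G27045), the remaining class I gene, is placed at chr1:9391609-9393019 on the forward strand. In the TAIR10 release it was split from the neighbouring AT1G27050, a gene for an RNA recognition motif protein, which begins 464 bases beyond it in TAIR10.1, and values from older annotations may belong to that neighbour. It had 16 reads and an FPKM of 0.659 in *cep1*, against 257 reads and an FPKM of 11.1 in the WT. This was the lowest ratio of the 5 genes in these libraries, a log2 ratio of -3.84, but with the widest interval, from -4.67 to -3.11. Only *ATHB-54* had fewer than 20 reads in a library. When 1 was added to each FPKM, which weighs low levels less, its log2 ratio was -2.87.

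*ATHB-9* (AT1G30490) is the class III member. The table places it at chr1:10796135-10800961 on the reverse strand, and TAIR10.1 gives it 18 exons and a coding sequence of 2526 bases. It had 1331 reads and an FPKM of 20.5 in *cep1*, against 3306 reads and an FPKM of 53.7 in the WT. Its log2 ratio of -1.15 (interval -1.24 to -1.06) lay beside that of *ATHB-7*, near the threshold, and its level in *cep1* was 45.1% of that in the WT.

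*HDG5* (AT5G46880), of class IV, is placed at chr5:19031350-19035731 on the forward strand, with 11 exons in TAIR10.1. RefSeq gives the symbol *HB-7* both to this gene and to *ATHB-7*, so the pair is kept apart here by identifier. *HDG5* had 27 reads and an FPKM of 0.406 in *cep1*, against 311 reads and an FPKM of 4.92 in the WT. It had the lowest FPKM of the 5 genes in both libraries. Its log2 ratio was -3.36 (interval -3.99 to -2.79), and -2.07 when 1 was added to each FPKM.

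**Figure D1:**
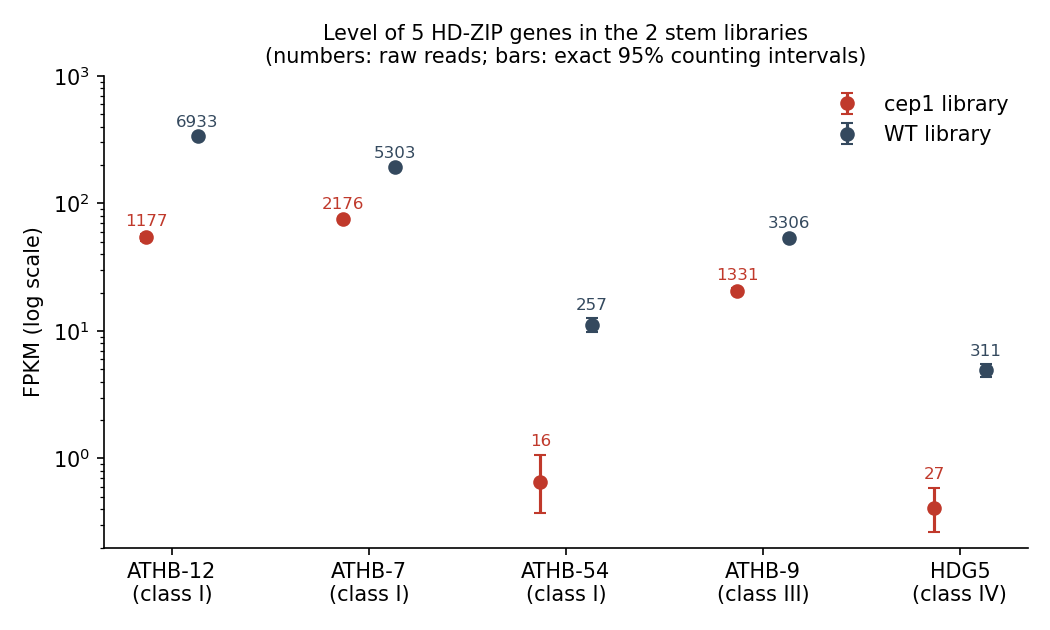
FPKM (log scale) of the 5 HD-ZIP genes in the *cep1* library (red) and the WT library (dark blue), with the raw reads printed above each point and exact 95% counting intervals as bars. *ATHB-7* is above *ATHB-12* in *cep1* (74.8 and 54.1) and below it in the WT (192 and 335), and *ATHB-54* and *HDG5* are under 1 FPKM in *cep1*.

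All 5 proteins share the homeodomain. The 7 codons below encode part of the third helix, which lies in the major groove of the DNA. A pattern of conserved amino acids was used to locate them, so part of the likeness was fixed by the search. The codons are shown to compare the 5 genes, not to define the family or its classes. They were read from the coding exons of TAIR10.1, in the direction of the gene, and capitals mark the 10 of 21 bases that are the same in all 5 genes.
ATHB-12: TGGTTtCAaAAcaagaGggct
ATHB-7: TGGTTtCAgAAcaagaGggct
ATHB-54: TGGTTcCAaAAcagaaGagct
ATHB-9: TGGTTcCAgAAtcgcaGatgt
HDG5: TGGTTcCAaAAtaggcGtacc

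*ATHB-7* had the same base as *ATHB-12* at 20 of these 21 positions and encoded the same 7 amino acids. *ATHB-54* matched *ATHB-12* at 17 bases and 6 amino acids, *HDG5* at 14 bases and 5 amino acids and *ATHB-9* at 12 bases and 5 amino acids. The stretch of *ATHB-12* lies at chr3:22915000-22915020, that of *ATHB-7* at chr2:19166528-19166548 and that of *ATHB-9* at chr1:10800009-10800540, all on the reverse strand, the last of them divided by an intron. That of *ATHB-54* lies at chr1:9392462-9392482 and that of *HDG5* at chr5:19032565-19032585, on the forward strand.

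Per length, the order of the levels differed between the libraries. In *cep1* it was *ATHB-7*, *ATHB-12*, *ATHB-9*, *ATHB-54* and *HDG5*. *ATHB-7* had 1.37 times the reads per base of *ATHB-12* there (interval 1.28 to 1.48). In the WT library *ATHB-12* came first, with 1.76 times the reads per base of *ATHB-7* (interval 1.70 to 1.82). The last neighbours of the order, *ATHB-54* and *HDG5*, differed by less than counting error in *cep1* (1.62 times, interval 0.817 to 3.12), whereas in the WT *ATHB-54* was 2.26 times higher (interval 1.91 to 2.68). The highest and the lowest of the 5 levels were 184-fold apart in *cep1* and 68.1-fold apart in the WT.

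The share of the reads that each gene took within a library does not depend on how the libraries are scaled to each other. The 5 genes held 4727 reads in *cep1*, against 16110 in the WT library. *ATHB-12* took 24.9% of them in *cep1* (exact 95% interval, 23.7 to 26.2%) and 43.0% in the WT (42.3 to 43.8%). *ATHB-7* took 46.0% in *cep1* (44.6 to 47.5%) and 32.9% in the WT (32.2 to 33.6%), and *ATHB-9* took 28.2% in *cep1* (26.9 to 29.5%) and 20.5% in the WT (19.9 to 21.2%). *ATHB-54* and *HDG5* together remained a small part, with 0.338% and 0.571% in *cep1* and 1.60% and 1.93% in the WT.

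Differences between the log2 ratios of 2 genes are likewise free of the scaling. Of the 10 pairs, 8 had an interval that did not hold 0. The same share was not computed for pairs of other listed genes, so nothing particular to the HD-ZIP genes is read from this count. The log2 ratio of *ATHB-12* was 1.27 below that of *ATHB-7* (difference -1.27, interval -1.39 to -1.16) and 1.25 below that of *ATHB-9* (difference -1.25, interval -1.38 to -1.12). It was above that of *HDG5* by 0.97 (interval 0.39 to 1.60) and above that of *ATHB-54* by 1.45 (interval 0.71 to 2.28). *ATHB-7* and *ATHB-9* differed by 0.03, with an interval from -0.09 to 0.15, and *ATHB-54* and *HDG5* by -0.48, with an interval from -1.50 to 0.50. The 3 class I genes differed from one another beyond counting error in every pair, as did most pairs of genes from different classes. No pair within class III or class IV was available. The interval of *ATHB-54* against *HDG5* was wide, with 16 and 27 reads in *cep1*. All these intervals compare the 2 libraries and carry no variation between plants.

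**Figure D2:**
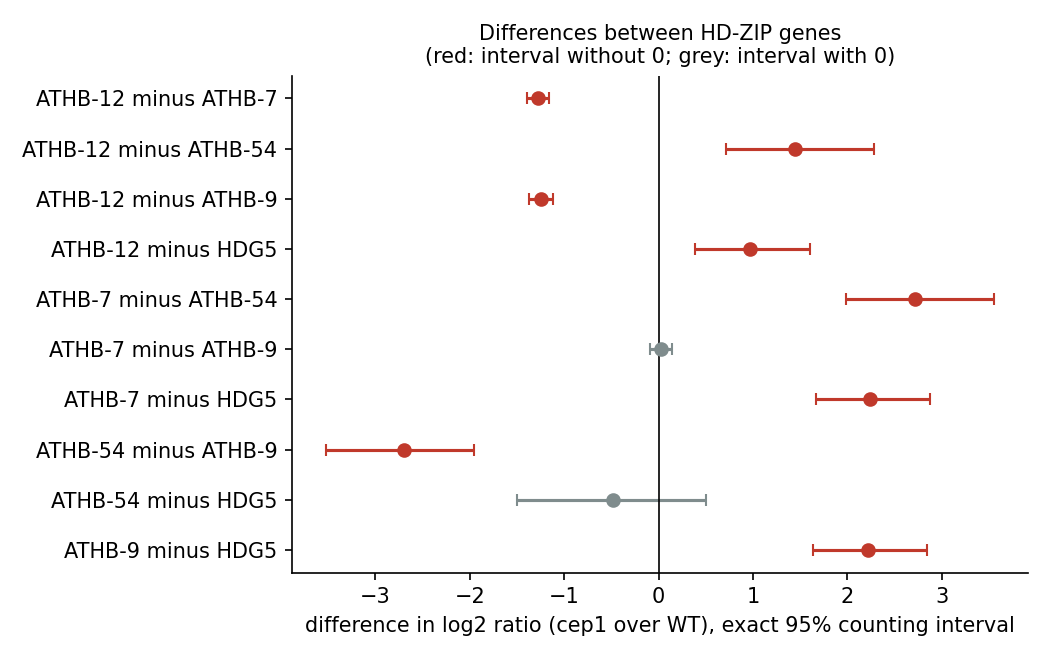
Difference in log2 ratio (*cep1* over WT) for the 10 pairs of HD-ZIP genes, with exact 95% counting intervals. Red marks the 8 intervals without 0 and grey the 2 with 0, *ATHB-7* minus *ATHB-9* (0.03) and *ATHB-54* minus *HDG5* (-0.48).

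Set among the genes of the table, the HD-ZIP genes had a median log2 ratio of -2.39, against -1.86 over all 733 genes. A log2 ratio of -2 or below was found for 3 of the 5, *ATHB-12*, *ATHB-54* and *HDG5*, and for 46.8% of the table. The interval lay wholly below -1 for 5 of 5 HD-ZIP genes and for 90.2% of the table, and the table itself was selected on this contrast, so nothing is read from these counts. *ATHB-54* and *HDG5* had few reads, and their FPKM in the WT ranked 691 and 730 of 733. *ATHB-12* and *ATHB-7*, at rank 49 and 99, were among the more abundant transcripts listed.

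**Figure D3:**
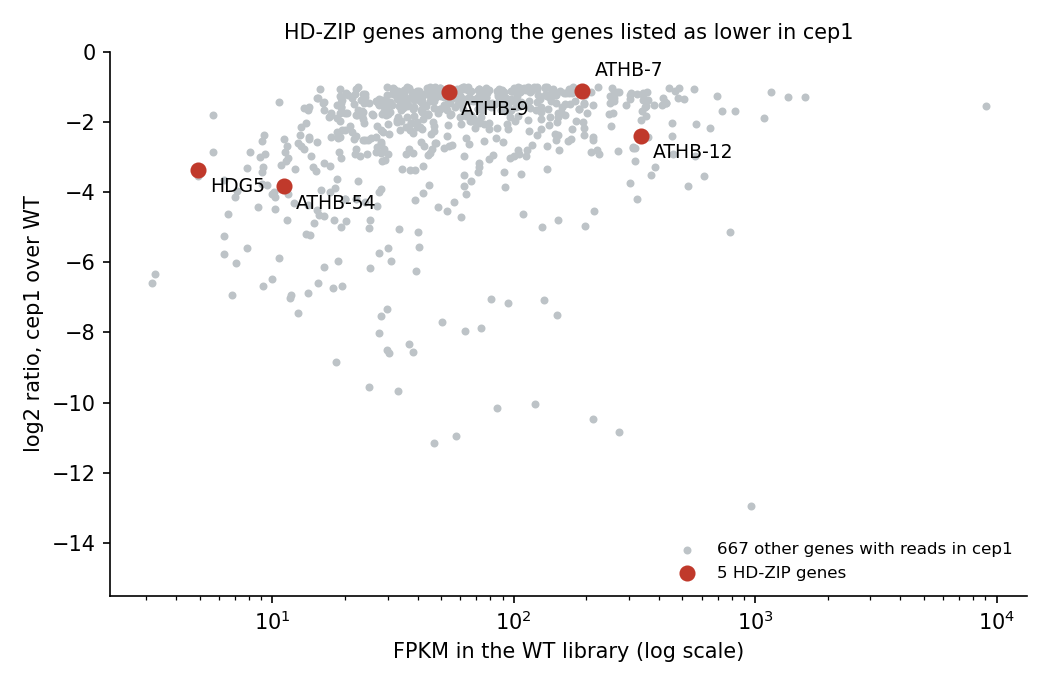
Log2 ratio (*cep1* over WT) against the FPKM in the WT library (log scale) for the 5 HD-ZIP genes (red) and the 667 other listed genes with reads in *cep1* (grey). *ATHB-7* (-1.12) and *ATHB-9* (-1.15) sit at the upper edge near the threshold of -1, and *HDG5* is towards the left with an FPKM of 4.92 in the WT.

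The scaling moved all ratios alike. Scaled to the library totals in place of the authors' normalized counts, each log2 ratio was 0.24 lower (offset -0.24). The ratio of *ATHB-7* was then -1.36 and that of *ATHB-9* -1.39, with upper limits of -1.29 and -1.30, and *ATHB-12* stood at -2.63.

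**Figure D4:**
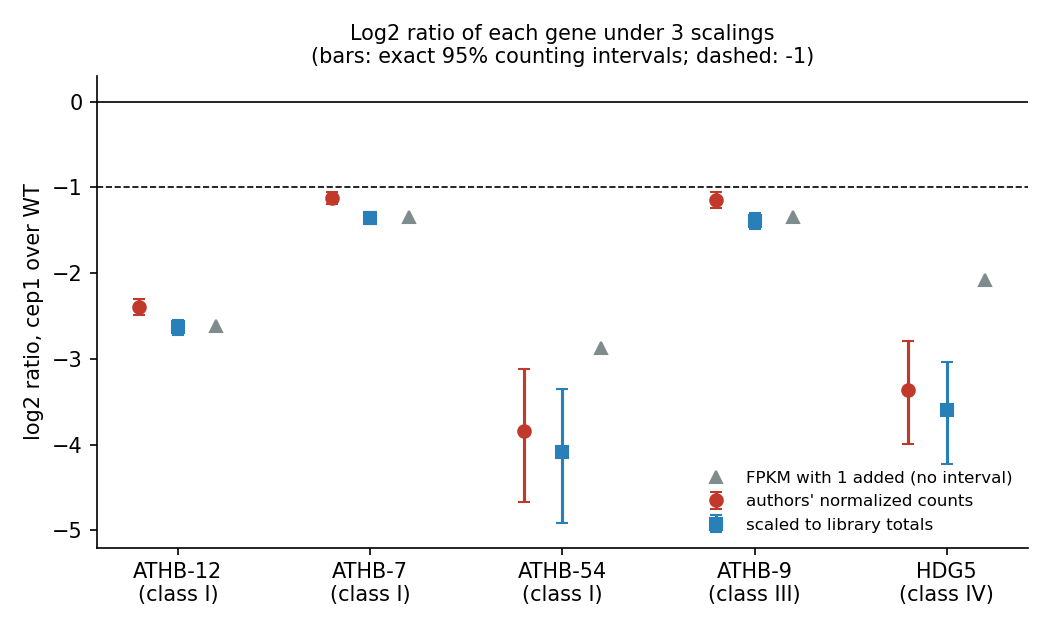
Log2 ratio (*cep1* over WT) of the 5 HD-ZIP genes on the authors' normalized counts (red circles), scaled to the library totals (blue squares) and from FPKM with 1 added (grey triangles), with exact 95% counting intervals for the first 2 and the threshold of -1 dashed. The added 1 brings *ATHB-54* to -2.87 and *HDG5* to -2.07, and all points stay below -1.

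In the deposited annotation all 5 genes were assigned to the nucleus and to DNA binding, terms held by 128 and 80 genes of the table. *ATHB-12* and *ATHB-7* were the only 2 of the 5 assigned to response to abscisic acid (41 genes of the table) and response to water deprivation (31 genes). *ATHB-12* alone of the 5 was assigned to response to osmotic stress (32 genes). *ATHB-9* alone carried adaxial/abaxial axis specification (2 genes), embryo development (12 genes) and seed development (30 genes). *ATHB-9* and *HDG5* shared lipid binding (10 genes), and both encode a START domain, which is named for its lipid-binding relatives in animals.

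*ATHB-12* and *ATHB-7* are known to act on the phosphatases and receptors of ABA signalling. Of 49 genes on 4 lists of that pathway, 6 were in the table, which holds 2.51% of all annotated protein-coding genes. The lists were chosen with earlier results known, and their share was not tested. The 6 genes had a median log2 ratio of -1.87, against -1.86 over the table. Among the receptors, *PYR1* was the only one of 14 listed, with 1647 reads in *cep1*, against 4595 in the WT library (log2 ratio -1.32). Of the 9 clade A phosphatases, which hold the pathway off in the absence of ABA, 3 were listed. *HAI1* had 114 reads in *cep1*, against 1338 in the WT library (log2 ratio -3.39), *HAB1* had 1111 and 3955 (-1.67), and *AIP1* (*HAI2*) had 514 and 1319 (-1.20). Thus *HAI1* had the lowest ratio of the phosphatases. Of the 10 kinases and transcription factors, *ABI3*, a regulator of seed maturation, had no read in *cep1*, with 0 reads there and 352 in WT stems, at least 105-fold lower against a limit of 3 reads for a count of 0, while the exact 95% interval used for the other genes reaches up to a log2 ratio of -6.40, an 84.7-fold lower level. Of 16 ABA- and drought-responsive genes, *RD20* (listed as *PXG3*), a caleosin, was in the table, with 2270 reads in *cep1*, against 10700 in the WT library (-2.07). The other 43 genes of these lists were not analysed here.

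The lists of organ polarity genes, chosen for class III, and of epidermis genes, chosen for class IV, gave 1 gene each. *ZPR1*, whose little zipper protein pairs with class III proteins and holds them off DNA, was the only one of 18 organ polarity genes in the table, with 746 reads in *cep1*, against 2242 in the WT library. Its log2 ratio was -1.42 (interval -1.55 to -1.30), beside -1.15 for *ATHB-9*. *PDF1*, an epidermal gene whose promoter carries the L1 box bound by class IV proteins, was the only one of 20 epidermis genes, with 570 reads in *cep1*, against 1702 in the WT library. Its log2 ratio was -1.41 (interval -1.55 to -1.28), beside -3.36 for *HDG5*.

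**Figure D5:**
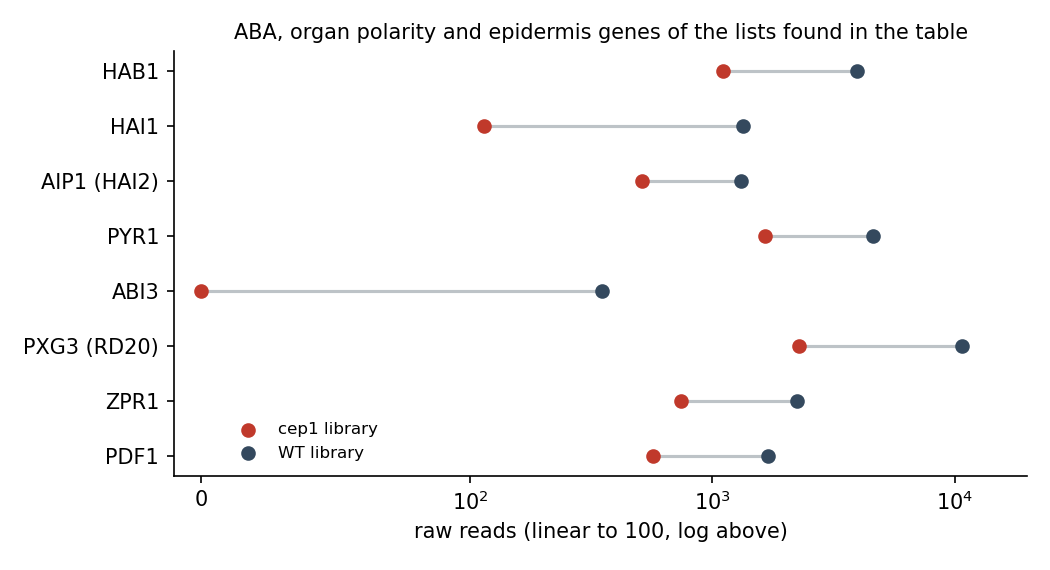
Raw reads (linear to 100, log above) of the 6 ABA pathway genes, *ZPR1* and *PDF1* in the *cep1* library (red) and the WT library (dark blue). All 8 are genes that the table lists as lower in *cep1*. *ABI3* has 0 reads in *cep1*, and *HAI1* has the widest gap of the others on the log scale, 114 and 1338 reads.

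The transcript of *ATHB-9* carries the site at which miR165 and miR166 cut class III messengers, shown because it sets *ATHB-9* apart from the other 4 genes. The mature microRNAs and the site were read from TAIR10.1 in DNA letters, with the seed (bases 2 to 8) of each microRNA in capitals, and in the site the bases that pair with miR165a by Watson-Crick pairing in capitals.
ath-miR165a-3p: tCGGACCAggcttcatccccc
ath-miR166a-3p: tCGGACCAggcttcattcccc
ATHB-9 site: ttGGGATGAAGCCTGGTCCGg

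Both microRNAs have the same seed. The copy of miR165a shown is at chr1:78932-78952 on the reverse strand and that of miR166a at chr2:19176241-19176261 on the forward strand. The *ATHB-9* site, at chr1:10799330-10799445 on the reverse strand, is formed by 11 bases of one exon and 10 of the next, with an intron of 95 bases between them. It paired with miR165a at 18 of 21 bases and with miR166a at 17 of 21. The best matches to either microRNA in the coding sequences of the other 4 genes paired at 11 to 13 of 21 bases. MicroRNAs were not measured in these libraries.

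The promoters of *ATHB-12* and *ATHB-7* were compared because the pair is closely related and differed in ratio. The 250 bases before each gene start of TAIR10.1, on the reverse strand of chr3:22915394-22915643 for *ATHB-12* and of chr2:19166968-19167217 for *ATHB-7*, hold a shared run of 22 bases, given in capitals. It begins 211 bases before the gene start in *ATHB-12* and 158 bases before it in *ATHB-7*.
ATHB-12: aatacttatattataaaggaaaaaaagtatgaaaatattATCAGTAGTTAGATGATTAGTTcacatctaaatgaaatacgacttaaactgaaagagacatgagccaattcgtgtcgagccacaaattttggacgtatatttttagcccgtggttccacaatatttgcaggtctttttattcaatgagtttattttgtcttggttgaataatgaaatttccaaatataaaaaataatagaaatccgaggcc
ATHB-7: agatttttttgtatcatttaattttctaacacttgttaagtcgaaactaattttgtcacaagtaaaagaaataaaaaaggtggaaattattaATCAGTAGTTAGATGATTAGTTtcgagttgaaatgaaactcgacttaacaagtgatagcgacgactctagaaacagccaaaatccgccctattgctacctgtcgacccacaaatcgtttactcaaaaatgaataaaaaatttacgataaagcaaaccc

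The run was found in 2 of 27443 promoters of that length (0.00729%), those of *ATHB-12* and *ATHB-7*. Counting both strands, it was at 2 places in all in the sequence of chromosomes 1 to 5. The longest runs that the other 9 pairs of HD-ZIP promoters shared were 7 to 10 bases. The run was found by comparing the windows and was not among the motifs listed, and its part in the expression of either gene was not tested.

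Listed motifs were searched on both strands. In the 250-base windows, the class I site CAATNATTG, the core TAATNATTA of the class III site and the L1 box (TAAATGCA or TAAATGTA) were in none of the 5 promoters, against 0.918%, 3.70% and 4.49% of all promoters. The core of the ABA response element, ACGTG, was in that of *HDG5* alone, where overlapping matches on the 2 strands form 1 palindrome, and in 22.9% of all promoters (33.9% of 690 promoters of the table). In windows of 1000 bases this core was before *ATHB-12* at 4 places, before *ATHB-7* at 1 and before *HDG5*. That is 3 of 5 genes, against 54.4% of all promoters and 63.3% of the 690 promoters of the table. The class III core TAATNATTA was then before *ATHB-12* and *ATHB-7* (11.4% of all promoters), and the L1 box before *ATHB-54* and *ATHB-9* (15.8%). These matches are descriptions of the letters in each window.

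By level in the 2 libraries, the named genes of the table nearest to each HD-ZIP gene were found from the distance in log2 FPKM over both libraries. *ATHB-7* lay closest to *CHS*, the chalcone synthase gene (FPKM 72.4 in *cep1* and 195 in the WT, distance 0.050), and to *ZFP2* (distance 0.084). *ATHB-9* lay closest to *CDF1*, a Dof factor gene (20.5 in *cep1* and 57.3 in the WT, distance 0.092), and to *BETA-OHASE 1* (distance 0.114). *ATHB-54* lay closest to the sucrose synthase gene *SUS2* (0.667 in *cep1* and 10.9 in the WT, distance 0.041) and to *ATRLP56* (distance 0.293). The more isolated genes were *ATHB-12*, with *TAR4* (distance 0.430) and the linker histone gene *HIS1-3* (0.447), and *HDG5*, with *FLA10* (0.540) and *GL2* (0.858). With 2 libraries this likeness rests on 2 values per gene.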

How the data were processed

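RNA from *cep1* and WT stems was sequenced as 1 library each on a HiSeq instrument. The authors mapped reads with TopHat2 2.0.12 and Bowtie2 2.2.3, and the submitters' notes name HTSeq 0.6.1. The genome build is not given in the sources used here. The authors deposited raw read counts, FPKM values scaled to gene length and library total, and a normalized count signal, the raw count divided by 20.3 (*cep1*) or 22.8 (WT), with values under 1 written as 0. Their deposited fold changes and p-values were not used. The library kit and counting are not stated to be stranded.

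Log2 ratios used raw counts divided by those factors, with exact (Clopper-Pearson) 95% intervals of the read share. Differences between genes used the conditional odds ratio of reads with its exact 95% interval. edgeR's quasi-likelihood test needs replicates and could not be fitted, so no p-value was computed. Library totals were recovered as the median over genes of the total that each count, length and FPKM imply. Alternatives were library totals, FPKM with 0.1 or 1 added, and at least 20 reads in both libraries. TMM or DESeq2 factors were not computed, because every listed gene is lower in *cep1*. The members, gene lists, motifs and alternatives were chosen with earlier results of these data known. Named genes were the 5 genes, *CEP1*, listed genes in the table and, for each of the 5, the 2 nearest named genes by log2 FPKM.

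Sequences came from RefSeq TAIR10.1. All 714 table genes with a locus tag on its chromosomes overlapped the gene of that tag and 120 had the same span. Coordinates of genes are the table's, and those of sequences are of TAIR10.1. Intervals were tried on simulated counts with read sampling only, where 95.6% of them held the true ratio. The simulation shares the assumption of the intervals and holds no variation between plants. Python 3.11.15, numpy 2.4.6, pandas 2.3.3, scipy 1.17.1, Biopython 1.88 and matplotlib 3.10.9 were used.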

Additional observations from a re-analysis of the deposited data

How the results depend on the processing

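No ratio changed direction under the alternatives tried, but this was fixed in advance and is no support. Scaling to the library totals lowered every ratio alike, and adding the same value to both FPKM values cannot reverse a sign. Scaled to the library totals or taken as the ratio of the deposited FPKM, the log2 ratio was -2.63 for *ATHB-12*, -1.36 for *ATHB-7* and -1.39 for *ATHB-9*. With 0.1 added to each FPKM these were -2.63, -1.36 and -1.38. With 1 added they were -2.61, -1.35 and -1.35, and *ATHB-54* stood at -2.87 and *HDG5* at -2.07, since the added value exceeds their FPKM in *cep1*. The median of the 5 was -2.63 by library totals, -2.07 with 1 added to each FPKM, and -1.77 with at least 20 reads in both libraries, which leaves out *ATHB-54*. That filter left 2 genes at -2 or below and 4 with an interval wholly below -1. Of the 598 genes of the table that pass it, 34.8% were at -2 or below. For 88.0% of them the interval lay wholly below -1, and their median was -1.61. Nothing is read from the counts of HD-ZIP genes beside these shares. As a share of the summed FPKM, *ATHB-12* took 35.9% in *cep1* and 56.2% in the WT, and beside *ATHB-7* alone its read share was 35.1% for *cep1* and 56.7% for the WT. No paired analysis was possible because each genotype has 1 library. Depth limits *ATHB-54* and *HDG5*, with 16 and 27 reads in *cep1*. Differences between plants were not measured.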

Other observations

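Beyond the HD-ZIP family, 3 genes for other homeodomain proteins were in the table. The zinc finger homeodomain gene *ZHD11* had 94 reads in *cep1*, against 628 in the WT library (log2 ratio -2.58, exact 95% interval -2.90 to -2.26). *ZHD1*, of the same family, had 69 reads in *cep1*, against 426 in the WT library (log2 ratio -2.46, interval -2.85 to -2.09). *BLH5*, a BEL1-like homeodomain gene, had 122 reads in *cep1*, against 503 in the WT library (log2 ratio -1.88, interval -2.18 to -1.59). The 3 were chosen by their deposited description after the table had been read, and the table lists only genes lower in *cep1*.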
